A study of Homo sapiens with 6 samples.

Results

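The caveolins, the cavins and EHD2 build the coat of caveolae, and their transcripts were followed in Rh30 cells given a drug or its solvent. The group has 8 members (CAV1, CAV2, CAV3, CAVIN1, CAVIN2, CAVIN3, CAVIN4 and EHD2) of the 35268 named genes in the table, and they were taken by their symbols. The group was chosen by the higher CAV1 level seen in drug-treated cells of this same experiment, so the values of CAV1 are given as a description with no test. Of the 8 members, 7 had a mean of at least 10 normalized counts over the 6 libraries and entered the fit, among 13930 genes in all.

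Rh30 is an established line of fusion-positive rhabdomyosarcoma (FP-RMS), a tumor of the muscle lineage driven by the PAX3-FOXO1 fusion protein, and all libraries came from this line. The drug, named YK in the column headers of the table, is a small molecule inhibitor of ETS family transcription factors. Polyadenylated RNA was sequenced from 3 libraries of cells that received 1 µM of the drug dissolved in DMSO for 24 hours and from 3 libraries of cells that received DMSO for the same time. The labels number the replicates without saying that they were separate cultures, so the p-values below measure the spread between these libraries, which may be technical.

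Caveolae are small flask-shaped pits of the plasma membrane, abundant in muscle, fat and endothelium, which flatten under tension and hold signalling receptors and lipids. Caveolins insert as oligomers into the inner leaflet of the membrane, cavins assemble on them as a peripheral coat, and EHD2 gathers as an ATPase at the neck of the pit. CAV3 and CAVIN4 are the forms typical of striated muscle, and mutations of CAV3 and of CAVIN1 cause inherited muscle disease.

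The family members resemble each other in protein, and the stretches of identical coding sequence bear on whether a read could belong to more than 1 of them. The longest run of identical coding bases between CAV1 and CAV3 was 16 bases, against reads of 150 bases. It is shown here in capitals within its flanks, from GENCODE transcripts on hg38, at chr7:116559132-116559171 on the plus strand for CAV1 and at chr3:8745712-8745751 on the plus strand for CAV3.
CAV1: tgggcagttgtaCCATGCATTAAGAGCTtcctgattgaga
CAV3: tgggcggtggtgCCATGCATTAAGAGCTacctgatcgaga
The other caveolin pairs shared at most 14 bases (CAV2 and CAV3) and 12 bases (CAV1 and CAV2) in a row. Among the cavins the longest run, 24 bases, was that of CAVIN1 and CAVIN2, and it is shown in capitals because it is the longest within either family, at chr17:42422747-42422794 on the minus strand for CAVIN1 and at chr2:191846563-191846610 on the minus strand for CAVIN2.
CAVIN1: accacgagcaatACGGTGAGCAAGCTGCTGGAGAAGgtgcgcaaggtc
CAVIN2: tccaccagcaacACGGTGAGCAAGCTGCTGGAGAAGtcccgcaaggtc
EHD2 shared runs of 29, 26 and 32 bases with its relatives EHD1, EHD3 and EHD4. All of these runs were far shorter than a read. Untranslated sequence and stretches that match with a few differences were not compared, so shared reads are not excluded.

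The libraries held 16724650 to 24677433 reads on named genes. DMSO replicate 1 stood apart, since its log2 values correlated less with those of the other libraries (mean 0.989, where no other library was below 0.992) and its share of reads from 13 mitochondrial genes was 6.05%, where the others had 4.74% to 5.03%, so results are also given without it. The muscle lineage of the line was visible in MYOD1, the myogenic regulator with the highest level, at 34516 to 39146 normalized counts in DMSO and 35548 to 37701 with drug. Of 9 myogenic markers 6 were tested, 0 passed limma's adjusted p of 0.05 in either direction and 2 had an unadjusted p under 0.05, as had 18.7% of all genes tested. These 2 were MYOG (log2 fold change 0.23) and DES (0.14). In both, every drug-treated library lay above every DMSO library, which held for 10.9% of all genes tested. MYF5, MYF6 and PAX7 were not tested and had at most 2, 1 and 4 reads in any library. Markers of other cell types that can be rich in caveolae were summed in each library. The 8 endothelial markers summed to 316 to 420 normalized counts in DMSO and 304 to 336 with drug, with TEK the highest. The 7 adipocyte markers summed to at most 13.9 in any library, and 3 of them, ADIPOQ, PLIN1 and LPL, were at 0 in every library. The 8 fibroblast markers summed to 1006 to 1120 in DMSO and 1260 to 1348 with drug, mostly COL1A1 and PDGFRA. DCN had at most 1 read in any library and DPT was listed at 0. COL1A1, a fibrillar collagen chain, rose from 636 ± 56.4 to 805 ± 26.5 (SD, n = 3 each; log2 fold change 0.34, limma adjusted p = 0.0375). It missed the threshold in 4 of the 6 fits with 1 library left out, and its limma adjusted p was 0.145 with eBayes without trend and 0.0812 with a replicate block. In bulk RNA, a smaller share of cells of a type and less RNA per cell cannot be told apart, and the part of these marker levels in the results below was not tested.

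Per kilobase of canonical transcript, the cavin CAVIN1, without which caveolae do not form, was the most abundant member in DMSO, at 834 ± 129 normalized counts per kilobase (SD, n = 3). The muscle caveolin CAV3 followed at 555 ± 61.9 and EHD2 at 486 ± 35.9, and the ranges of these neighbours overlapped (485 to 603 and 459 to 527). CAV1 came next at 316 ± 33.2, ahead of CAV2 at 184 ± 9.80, CAVIN2 at 136 ± 8.42 and the muscle cavin CAVIN4 at 74.6 ± 4.19. Apart from CAV3 and EHD2, no neighbours in this order overlapped in the DMSO libraries. Among the 12595 protein-coding genes tested, CAVIN1 lay at percentile 87.1 of this level, CAV3 at 79.8, CAV1 at 65.7 and CAVIN4 at 30.1. CAVIN3 was listed at 0.

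**Figure D1:**
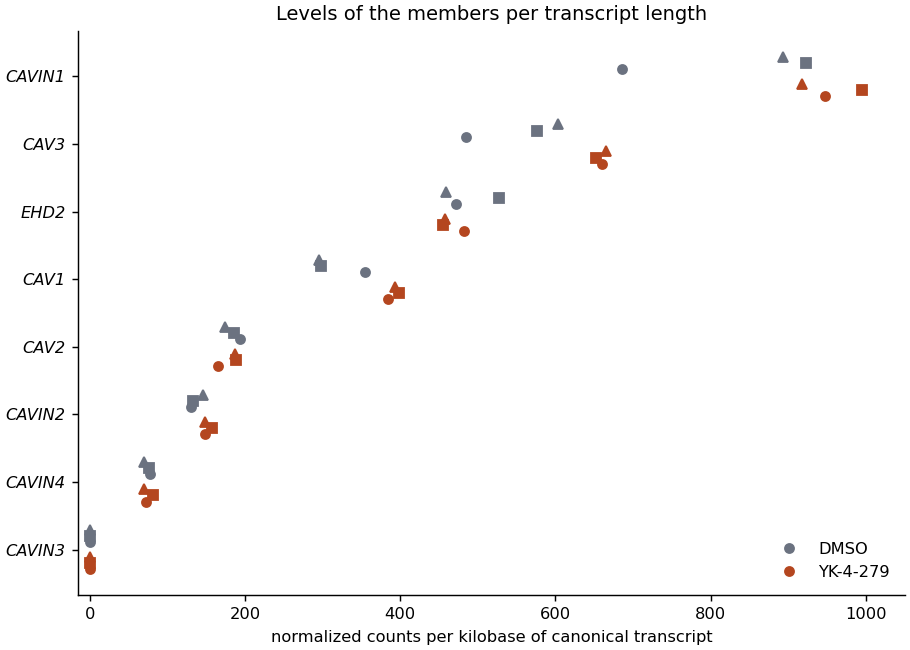
Normalized counts per kilobase of canonical transcript (x axis) of each member (y axis, in the order of the DMSO means), with 1 point per library, DMSO in grey and 1 µM of the drug in orange; circles, squares and triangles are replicates 1, 2 and 3. CAVIN1 had the highest level in DMSO, at 834, CAV3 and EHD2 overlapped, and CAVIN3 was listed at 0.

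CAV1 (ENSG00000105974.13, hg38 chr7:116524994-116561179, plus strand), the caveolin that forms caveolae outside striated muscle, had 870, 731 and 726 normalized counts in DMSO and 943, 980 and 967 with drug. Values are listed here and below in the order of replicates 1, 2 and 3. Every drug-treated library lay above every DMSO library, and DMSO replicate 1 was the highest of its group. The mean was 776 ± 81.5 in DMSO and 964 ± 18.7 with drug (SD, n = 3 each), which is 24.2% higher. On the log2 scale the difference was 0.32. Here and below a log2 fold change is the difference between drug and DMSO on the log2(normalized count + 1) scale. For comparison, 9.17% of the genes tested had a larger rise than CAV1. Without DMSO replicate 1 it was 0.40.

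CAV2 (chr7:116287380-116508541, plus strand), which joins CAV1 in mixed oligomers, lies beside it, with 16494 bases between the canonical transcripts. It had 570, 549 and 513 normalized counts in DMSO and 488, 555 and 553 with drug. The groups overlapped, with the lowest value in a drug-treated library. The log2 fold change was -0.03 (standard error 0.09, 95% interval -0.22 to 0.15, limma adjusted p = 0.875), and without DMSO replicate 1 it was 0.00. The ratio of CAV1 to CAV2 normalized counts within a library was 1.53, 1.33 and 1.42 in DMSO and 1.93, 1.77 and 1.75 with drug. This ratio was higher in every drug-treated library, with and without DMSO replicate 1, but it contains the CAV1 values that chose the group and is a description.

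CAV3 (chr3:8733802-8841808, plus strand), the caveolin of striated muscle, had 690, 819 and 857 normalized counts in DMSO and 939, 928 and 946 with drug. The drug-treated libraries lay within a narrow band above all DMSO libraries, among which replicate 1 was the lowest. The log2 fold change was 0.26 (standard error 0.08, 95% interval 0.07 to 0.44) and did not pass the threshold (limma adjusted p = 0.118). Without DMSO replicate 1 it was 0.16 (limma adjusted p = 0.0581). CAV1 and CAV3 thus had opposite places in that library, where their ratio was 1.26 against 0.893 and 0.847 in the other DMSO libraries and 1.00, 1.06 and 1.02 with drug, so that the groups overlapped. As a ratio to CAV1 it is a description too.

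CAVIN1 (chr17:42402449-42423256, minus strand), the core cavin, had 2446, 3296 and 3187 normalized counts in DMSO and 3384, 3554 and 3279 with drug. The groups overlapped, since DMSO replicate 2 exceeded drug-treated replicate 3, and DMSO replicate 1 was far below the rest. The log2 fold change was 0.21 (standard error 0.09, 95% interval 0.01 to 0.41, limma adjusted p = 0.257). Without DMSO replicate 1 it was 0.07 (limma adjusted p = 0.316). The ratio of CAVIN1 to CAV1 was 2.81, 4.51 and 4.39 in DMSO and 3.59, 3.63 and 3.39 with drug, and the groups overlapped only through DMSO replicate 1. This ratio holds CAV1 as well and is a description.

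CAVIN2 (chr2:191834310-191847088, minus strand), a cavin that helps bend the membrane, had 397, 405 and 445 normalized counts in DMSO and 455, 480 and 452 with drug. The groups did not overlap, but DMSO replicate 3, at 445.0, lay close to drug-treated replicate 3, at 452.2. The log2 fold change was 0.16 (standard error 0.08, 95% interval -0.03 to 0.34) and did not pass the threshold (limma adjusted p = 0.349). An antisense gene, CAVIN2-AS1, covers 7.79% of its exon bases, and whether the authors counted by strand was not given in the sources used here.

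CAVIN4 (chr9:100578079-100588389, plus strand), the muscle cavin, had 241, 236 and 216 normalized counts in DMSO and 223, 252 and 217 with drug. The groups overlapped across nearly their whole range. Its log2 fold change was -0.00 (standard error 0.11, 95% interval -0.23 to 0.22, limma adjusted p = 0.992). The interval thus leaves room for a change in either direction of about the size of that of CAVIN1.

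CAVIN3 (chr11:6318946-6320532, minus strand), a cavin that binds protein kinase C delta, was listed at 0 in all 6 libraries. An antisense gene, ENSG00000282556, covers 438 of its 1028 exon bases (42.6%). GTF2H4, MRPL53 and TOMM6, which serve transcription, mitochondrial translation and mitochondrial import in most cells and were picked after their values were seen, were also listed at 0, as were 12839 genes in all. The value of CAVIN3 is therefore not read as its level.

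EHD2 (chr19:47713422-47743134, plus strand), which holds caveolae at the surface, had 1653, 1847 and 1611 normalized counts in DMSO and 1692, 1596 and 1603 with drug. The groups overlapped, and the highest value was that of DMSO replicate 2. For EHD2 the log2 fold change was -0.06 (standard error 0.07, 95% interval -0.21 to 0.09, limma adjusted p = 0.671). This standard error was the smallest of the members.

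**Figure D2:**
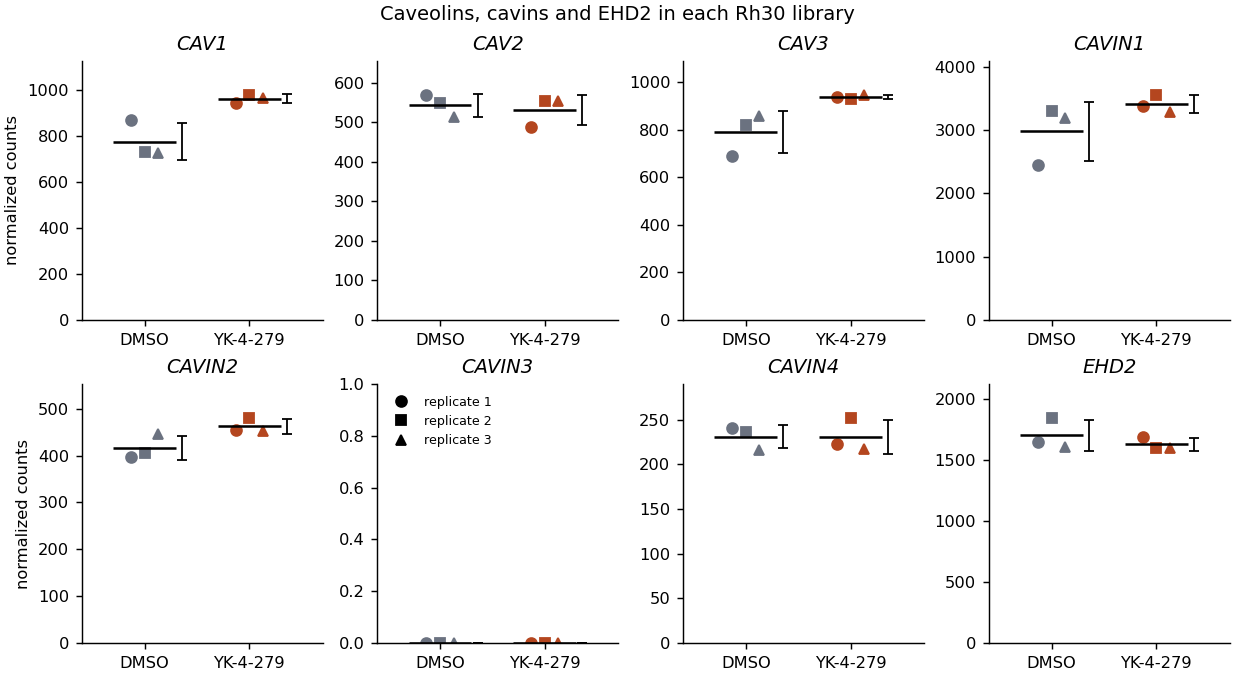
Normalized counts (y axis, from 0, on a separate scale for each gene) of the 8 members in DMSO (grey) and 1 µM of the drug (orange); points are libraries, with circles, squares and triangles for replicates 1, 2 and 3, lines are means and bars are SD (n = 3). CAV1, CAV3 and CAVIN2 had all drug-treated libraries above all DMSO libraries, and CAVIN3 was listed at 0.

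**Figure D3:**
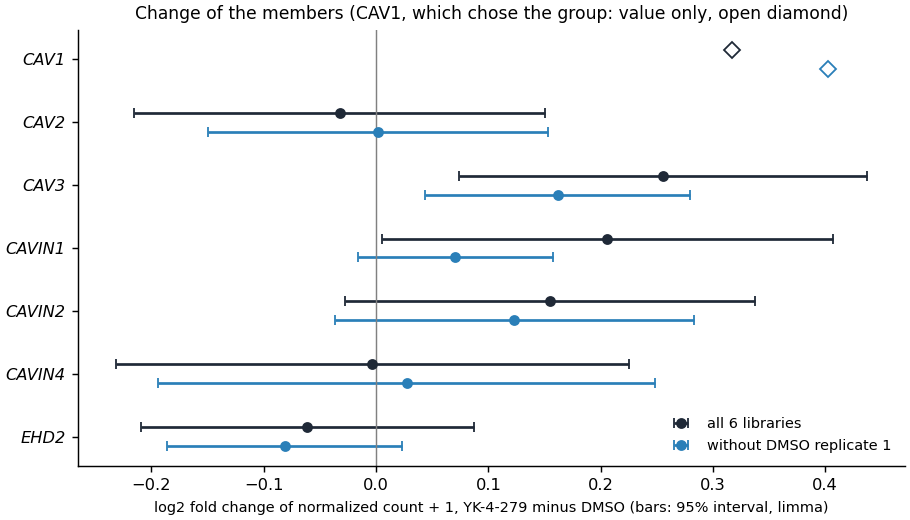
Log2 fold change of normalized count + 1, drug minus DMSO (x axis), of the 7 members in the fit, with 95% intervals from limma for 6 of them and the value alone for CAV1 (diamond), for all 6 libraries (black) and without DMSO replicate 1 (blue). Without that library CAV1 moved from 0.32 to 0.40, whereas CAV3 moved from 0.26 to 0.16 and CAVIN1 from 0.21 to 0.07.

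Over all genes tested, 3.41% had a limma adjusted p under 0.05 in either direction and 1.26% had it upward. The place of CAV1 in this fit is not read as a result, since the choice of the group used the same contrast. Of the 6 members tested beside CAV1, 0 passed in either direction in the main limma fit, edgeR or DESeq2. In limma with the trend on transcript GC content and length removed, CAV3 passed upward (adjusted p = 0.0332), as did 4.20% of all genes in that fit. In the main fit 2 of the 6, CAV3 and CAVIN1, had an unadjusted limma p under 0.05, against 18.7% of all genes tested. In 2 of these 6, CAV3 and CAVIN2, every drug-treated library exceeded every DMSO library, which held for 10.9% of all genes tested, and in the other 4 the groups overlapped. With all libraries, the log2 fold change was above 0 in 3 of the 6 and below 0 in 3, with a median of 0.08 against -0.01 over all genes tested. Without DMSO replicate 1, CAV2 (0.002) and CAVIN4 (0.027) lay just above 0, and only EHD2 (-0.081) stayed below.

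The proteins that work with the coat were followed as lists, and their calls are also given in fits that leave out DMSO replicate 1 or remove the trend of the values on transcript GC content and length, which called more genes everywhere. The fit without DMSO replicate 1 called 13.1% of all genes tested (4.62% upward and 8.46% downward), and the fit with the trend removed called 12.2% (4.20% upward and 7.98% downward). Of 20 partners of caveolae, such as dynamins, pacsins, EHD proteins, filamins and the kinases SRC and ABL1, 18 were tested, 0 passed the threshold in limma in either direction (5 had an unadjusted p under 0.05, where the share over all genes was 18.7%, edgeR called 0 and DESeq2 1), and the median log2 fold change was 0.05. FLNC, the muscle filamin and the partner with the highest level, had 24391 to 28686 normalized counts in DMSO and 27917 to 30471 with drug (log2 fold change 0.13, limma adjusted p = 0.320). Without DMSO replicate 1, 3 partners passed upward and 1 downward, and the median was -0.00. With the trend removed, 1 passed upward and 1 downward. Of 22 receptors, channels and signalling proteins linked to caveolae, 19 were tested and 0 passed in limma, edgeR or DESeq2 (5 had an unadjusted limma p under 0.05), with a median of -0.02. Without DMSO replicate 1, 2 passed upward and 3 downward, and with the trend removed 1 upward and 3 downward. GNAS, the stimulatory G protein subunit and the highest of them, had a log2 fold change of -0.19 (limma adjusted p = 0.101).

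CAV3 sits in muscle beside the dystrophin complex and the membrane repair proteins, and of 24 such genes 23 were tested, 2 rose and 0 fell, with a median log2 fold change of 0.04. Over all genes tested 1.26% passed upward and 3.41% in either direction. Of the 23, 7 had an unadjusted limma p under 0.05, as had 18.7% of all genes tested. edgeR called 2 higher and DESeq2 3 higher, and both called 0 lower. The 2 limma calls, ANXA1 and MYOF, were lost in limma with eBayes without trend (adjusted p = 0.0753 for ANXA1 and 0.0755 for MYOF). In limma 5 were called higher and 2 lower both without DMSO replicate 1 (4.62% and 8.46% of all genes) and with the trend removed (4.20% and 7.98%). ANXA1, an annexin that binds phospholipid when calcium enters, had 841, 791 and 768 normalized counts in DMSO and 1093, 1201 and 1149 with drug. It rose by 0.52 on the log2 scale (standard error 0.07, limma adjusted p = 0.00329), although without drug-treated replicate 2 its limma adjusted p was 0.0569. MYOF, a ferlin of membrane repair and myoblast fusion, had 314, 284 and 297 in DMSO and 411, 429 and 406 with drug. It rose by 0.48 (standard error 0.09, limma adjusted p = 0.0117), and without drug-treated replicate 1, 2 or 3 its limma adjusted p was 0.101, 0.0976 or 0.0753. In both genes the groups were well apart. ANXA6, the member of this list with the highest level, had a log2 fold change of -0.01 (limma adjusted p = 0.942).

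Other routes and neighbours served as comparison. Of 8 flotillins and relatives, which form membrane domains without caveolins, 7 were tested and 0 passed in limma, edgeR or DESeq2 (0 had an unadjusted limma p under 0.05), with a median of -0.03, and PHB2, a prohibitin and the highest, had a log2 fold change of -0.03 (limma adjusted p = 0.852). Of the 7, 1 passed downward without DMSO replicate 1 (8.46% of all genes) and 1 with the trend removed (7.98%). Of 19 genes of the clathrin coat, 17 were tested, 0 passed in limma, edgeR or DESeq2 (4 had an unadjusted limma p under 0.05) and 12 were below 0, with a median of -0.09. In 6 of the 17 every drug-treated library lay below every DMSO library, which held for 15.1% of all genes tested. Without DMSO replicate 1, 3 passed downward in limma, as did 8.46% of all genes tested, and with the trend removed 4 passed downward, as did 7.98%. CLTC, the clathrin heavy chain, had a log2 fold change of -0.16 (limma adjusted p = 0.249). Of 9 neighbours of CAV1 and CAV2 on chromosome 7, 4 were tested and 0 passed in limma, edgeR or DESeq2 (2 had an unadjusted limma p under 0.05), with a median of -0.07, and MET, the receptor of hepatocyte growth factor, had a log2 fold change of -0.06 (limma adjusted p = 0.694). TES, an actin-associated LIM protein gene picked after its value was seen, had 410, 295 and 317 normalized counts in DMSO and 375, 436 and 423 with drug, with overlapping groups (log2 fold change 0.28, limma adjusted p = 0.224). Of the 4 tested, 1 (TES) was above 0 and 3 were below. In CAPZA2, also picked after its value was seen, every drug-treated library lay below every DMSO library (log2 fold change -0.21, limma adjusted p = 0.183). Of the 4 neighbours, 1 passed upward without DMSO replicate 1 (4.62% of all genes) and 1 with the trend removed (4.20%).

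**Figure D4:**
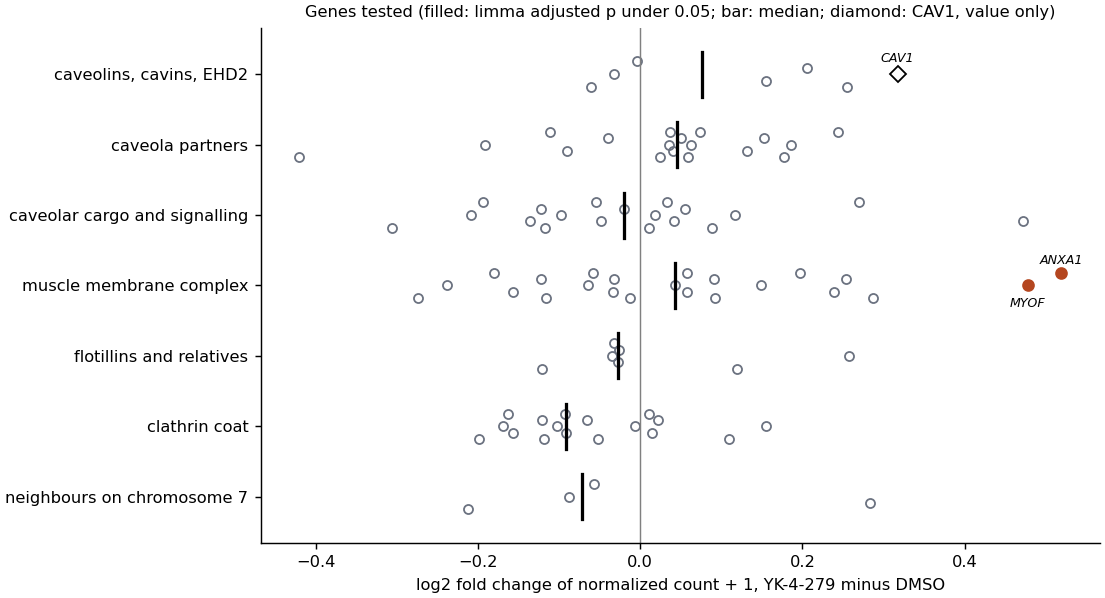
Log2 fold change of normalized count + 1, drug minus DMSO (x axis), of every gene tested in the members and the 6 lists (y axis), with 1 circle per gene, filled where limma's adjusted p was under 0.05, and a bar at the list median. CAV1 is a diamond, shown as a value alone and left out of its list's median. MYOF and ANXA1 are filled, and the medians of the 6 lists lie between -0.09 and 0.05.

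The likeness of other genes to CAV1 was measured by the root mean square difference of their log2 values, each centred on its own mean, over the 6 libraries. Among 10698 other genes with a mean of at least 100, the nearest were SLC46A3 (0.0283), IER3 (0.0329), XRRA1 (0.0335), KDM5B (0.0383) and CREB5 (0.0450). Their choice by this profile fixed that their values followed those of CAV1 across the libraries. Over all 6 libraries the nearest other member was CAVIN2, at rank 1129 with a difference of 0.150, and CAVIN1 was the farthest, at rank 6426. In DMSO replicate 1 CAV1 was the highest of its group and CAVIN1 the lowest, and the order without that library was not computed. These ranks rest on the CAV1 values that chose the group and are a description.

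The promoters of the members were read for motifs. RefSeq windows on GRCh38.p14, of 250 bases before and 50 after a start, were given for 6 members in 9 windows, and not for CAVIN1 and CAVIN3. Windows of the same gene can overlap. Each motif was sought on both strands. GGGCGG, bound by SP1, was found in CAV1, CAV2 and EHD2, in 6 of the 9 windows, and in 45.0% of all 35116 promoters. CAGCTG, an E-box of the kind MyoD binds, was found in CAV2, CAV3 and CAVIN2, in 3 of the 9 windows, and in 17.9% of promoters. GGAATG, bound by TEAD factors, was found in CAVIN2, in 1 of the 9 windows, and in 14.0% of promoters. CCGGAA, a longer form of the ETS site, was found in 0 of the 9 windows and in 17.2% of promoters. The shorter ETS core GGAA was not sought by itself. That core lies within the TEAD motif found in CAVIN2, so its absence is not read from these counts. TGANTCA, bound by AP-1, and the CArG box were found in 0 of the 9 windows and in 7.71% and 1.29% of promoters.

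These are stretches that lie just upstream of 3 members, shown so that the motifs can be seen in place, from RefSeq on GRCh38.p14, with the motifs found in capitals. They are CAV1 at chr7:116524759-116524993 on the plus strand, CAV3 at chr3:8733702-8733801 on the plus strand and CAVIN2 at chr2:191847089-191847148 on the minus strand.
CAV1: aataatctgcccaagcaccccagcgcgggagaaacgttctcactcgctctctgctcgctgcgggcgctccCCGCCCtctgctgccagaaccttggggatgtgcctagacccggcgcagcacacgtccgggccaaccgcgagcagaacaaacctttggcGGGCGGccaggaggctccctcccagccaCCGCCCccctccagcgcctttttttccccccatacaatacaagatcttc
CAV3: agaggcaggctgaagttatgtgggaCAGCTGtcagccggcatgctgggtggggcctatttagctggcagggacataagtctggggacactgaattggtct
CAVIN2: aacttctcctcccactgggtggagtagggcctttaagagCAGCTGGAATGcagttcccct
In CAV1 the capitals are GGGCGG or its reverse complement, in CAV3 they are the E-box, which starts 75 bases before the start site, and in CAVIN2 they are the E-box and the TEAD motif, which share 1 base. A match of letters is a description and not a bound site, and the absence of a match says only that the letters were not in the window.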

How the data were processed

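The analysis used 3 libraries of Rh30 cells treated with DMSO and 3 treated with the drug at 1 µM, all for 24 hours, grouped by GEO's treatment labels. Reads were trimmed with BBDuk, and the submitters' processing notes name bcl2fastq, FastQC 0.11.8, MultiQC 1.8, STAR 2.7.9a, DESeq2 1.44.0 and hg38. The annotation used by the authors is not given in the sources used here. The values deposited by the authors are a normalized signal per gene, in which each library's reads are divided by a factor of that library. When this factor was undone, 100% of values came out whole (within 1e-06), and the recovered reads were used in the count tests. The table had 35269 rows, of which 1 without a gene name, with at most 6 reads in any library, was left out.

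Genes with a mean of at least 10 were tested two-sided in limma 3.58.1 (R 4.3.3), by lmFit and a trended eBayes, on log2(normalized count + 1), with Benjamini-Hochberg adjustment over 13930 genes. The pseudocount understates the changes of low genes. Levels per kilobase used the length of the GENCODE canonical transcript.

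The members and lists were chosen with earlier results of these data known. All members were named. In each list the tested gene with the highest mean was named, with up to 3 of the largest changes at an adjusted p under 0.05, together with the 5 genes most like CAV1 and the highest marker of each marker list. Alternative fits used the recovered reads in edgeR 4.0.16 or DESeq2 1.42.0, TMM or quantile scaling, another pseudocount or filter, an eBayes with no trend, the replicate number as a block, 5 of the 6 libraries, or values from which the trend on transcript GC content and length had been taken. Protein sequences were not analysed here, and coding sequences were compared instead. The code was tested on simulated reads.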

Additional observations from a re-analysis of the deposited data

How the results depend on the processing

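Over 17 alternatives the log2 fold change of CAV1 ranged from 0.27 to 0.40, that of CAV3 from 0.16 to 0.32, that of CAVIN1 from 0.07 to 0.29, that of CAVIN2 from 0.12 to 0.21 and that of EHD2 from -0.12 to -0.00. CAV2 and CAVIN4, both near 0, changed sign. CAV2 was 0.073 after removal of the trend on GC content and length and ranged from -0.074 to 0.029 with 1 library left out. CAVIN4 was 0.015 with TMM scaling, 0.018 with edgeR, 0.014 with DESeq2, 0.070 with the trend removed and -0.069 to 0.039 with 1 library left out. Of the members, limma called 0 with a pseudocount of 0.5, 0 with quantile normalization, 0 with eBayes without trend, and 0 to 1 with 1 library left out. With the trend removed it called 2. These counts hold CAV1, whose rise in this contrast chose the group, so nothing is read from them. CAV3 passed with the trend removed (0.19, limma adjusted p = 0.0332). Over all genes limma called 475 (176 higher, 299 lower), against 277 with quantile normalization (132 higher, 145 lower), 33 with eBayes without trend (30 higher, 3 lower), 1668 with the trend removed (575 higher, 1093 lower) and 19 to 1823 with 1 library left out. edgeR called 465 and DESeq2 623. The cause of these differences was not tested. List medians crossed 0 without DMSO replicate 1 for the partners (-0.00) and the chromosome 7 neighbours (0.02), with quantile normalization for the flotillins (0.02), with the trend removed for the muscle membrane genes (-0.01), and for the receptors and signalling proteins when DMSO replicate 2 (0.01) or drug-treated replicate 3 (0.01) was left out.

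With a replicate block, limma called 180 genes (79 higher, 101 lower) and 0 members. The labels do not say whether same-numbered samples were handled together. The correlations of their deviations from the group means were -0.098, -0.027 and -0.027. Differently numbered samples were not compared in this way, so these values cannot decide whether the samples were paired.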
